A study of Mus musculus with 9 samples.

Results

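The genes described are 9 that mark smooth muscle cells and pericytes: Acta2, Tagln, Myh11, Cnn1, Des, Rgs5, Cspg4, Mcam and Myl9. They were chosen by symbol, each symbol matched 1 Ensembl identifier of the deposited count table, and they are 9 of its 38560 genes. Their levels were read in 9 RNA-seq libraries of mouse testis at 12.5 dpc (days post coitum), with 3 libraries for each of 3 populations that were sorted by flow cytometry and named Sertoli, Leydig and Interstitial. All mice carried the Sf1-eGFP transgene, a green fluorescent reporter named for Sf1 (the gene Nr5a1), no other allele or treatment is named, and the sources used here do not give the fluorescence gates behind the 3 names. Gonads were classed as testes by their cords, and a CD31 antibody served to take germ cells and endothelial cells out of the dissociated tissue. Each sample pooled about 10 sorts made on different days, with 4 to 10 litters in each sort. Per population the labels describe 2 such samples, A and B, and their mix. Replicate C was taken as this mix by elimination, though no label says so, and its values are shown while the tests use A and B.

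Smooth muscle cells and pericytes are the contractile cells of vessel walls and of many organs. Smooth muscle cells ring arteries and ducts, pericytes wrap capillaries, and in the testis the related peritubular myoid cells come to surround the cords. Force comes from myosin pulling on actin filaments once the regulatory light chain of myosin is phosphorylated, and transgelin, calponin and desmin organise these filaments. The transcription factor SRF with its coactivator myocardin (Myocd) is known to switch on contractile genes through a DNA motif called the CArG box.

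The reference promoter sequences of the members carried such motifs at Myl9 and, in a looser form, at Acta2 and Cspg4. Those of Myl9 and Acta2 are shown because both genes were highest in Leydig (below), although Acta2 and not Myl9 was called between Interstitial and Sertoli. The windows came from RefSeq on GRCm38.p6 and run from 250 bases before to 50 after each RefSeq start. Of the 9 members, 7 had an entry. Tagln and Myh11 had none. The CArG box, which reads the same on both strands, was found without a mismatch in 1 of the 7, Myl9, and with at most 1 mismatch in 3 of the 7, Acta2, Cspg4 and Myl9. Cnn1, Des, Rgs5 and Mcam had no match. Of these, Des and Rgs5 were also higher in Leydig than in Sertoli, while Cspg4 was not called there. Any link of motif to level was not tested. Of the 32851 promoter windows scanned, which left out 1 chromosome that holds no member, 1.63% held an exact box and 21.1% one with at most 1 mismatch. In Cspg4 the matches CCTTAAAATG and CTTAAAATGG overlap, 238 and 237 bases before the start. The Myl9 run below is chr2:156775214-156775419 on the plus strand and stops where the GENCODE M21 annotation puts the first exon. It holds the exact box CCTAATAAGG, which begins 161 bases before the RefSeq start, and CCTTGTAAGG with 1 mismatch, which begins 99 bases before it. The Acta2 boxes CCCTATATGG and CCTTGTTTGG, each with 1 mismatch, begin 84 and 34 bases before the RefSeq start. GENCODE M21 places both inside the first exon, in the 5′ untranslated region, so each is shown with 10 bases on either side, at chr19:34255438-34255467 and chr19:34255388-34255417 on the minus strand. Capitals mark the matches, which describe letters and not binding.
Myl9 upstream: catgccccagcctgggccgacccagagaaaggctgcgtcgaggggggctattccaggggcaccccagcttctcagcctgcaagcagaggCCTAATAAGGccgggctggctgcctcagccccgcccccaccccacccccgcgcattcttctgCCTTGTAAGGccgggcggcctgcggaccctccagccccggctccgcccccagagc
Acta2 first box: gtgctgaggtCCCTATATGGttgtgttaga
Acta2 second box: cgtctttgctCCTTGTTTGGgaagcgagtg

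Per library, 33.12 to 39.24 M reads fell in genes (M, 1000000 reads). Expression is given as normalised CPM, counts per 1000000 reads in genes after TMM scaling. A count of 0 allows up to 3 reads, or 0.0764 to 0.0906 CPM. This floor covers counting error alone, since reads copied by PCR do not count separate molecules. Replicates A and B of each population differed beyond counting noise, and C lay between A and B for 40.3% of 11460 genes in Sertoli, 53.4% in Leydig and 35.2% in Interstitial. A library unrelated to A and B would also lie between them for some genes, so these shares do not settle whether C is the mix. The mean squared difference, in units of counting variance, was 19.4 between A and B in Sertoli, 11 between C and A and 17.8 between C and B. In Leydig these values were 16.2, 3.95 and 9.84, and in Interstitial 24.4, 11.5 and 17.9. C was thus nearer to A than to B in each population, and whether an even mix would give these values was not tested. The labels were checked against markers. The summed level of 8 Sertoli markers was 3380 to 3590 CPM in Sertoli, 1000 to 1050 in Leydig and 158 to 185 in Interstitial. The sum of 8 fetal Leydig markers was 342 to 585 CPM in the libraries labelled Leydig, 404 to 451 in Sertoli and 94.8 to 122 in Interstitial, so these markers did not set the libraries labelled Leydig above Sertoli. The Interstitial libraries carried 14000 to 14700 CPM of 10 erythroid genes, against 161 to 465 in Sertoli and 163 to 580 in Leydig.

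Of the 9 genes, 6 were higher in Leydig than in Sertoli, 1 was lower and 2 did not pass the test. Acta2, Des, Tagln and Rgs5 were 2.73-fold to 3.24-fold higher, Myh11 was 1.51-fold and Myl9 1.53-fold higher. Mcam was lower in Leydig, and Cspg4 and Cnn1 did not pass. The test was edgeR's quasi-likelihood test on replicates A and B of all populations, with p-values adjusted over the 18048 genes tested and genes called at an adjusted p under 0.05, and all 9 members passed the filter on low counts. The members' median log2 difference was 0.62, against -0.005 for all genes. Of all genes, 37.5% were called in this comparison, 16.9% higher in Leydig and 20.6% higher in Sertoli. In bulk RNA, fewer cells of a type and less RNA per cell cannot be told apart. Each population has 2 pools of many litters, so a p-value here reflects how much pools vary, not animals.

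Against Interstitial, 5 of the 9 were higher in Leydig (Myh11, Cspg4, Acta2, Myl9 and Mcam), 1 was lower (Rgs5) and 3 did not pass (Tagln, Cnn1 and Des). The members' median was 0.3 against 0.01 for all genes, with 45.1% of all genes called, 22% higher in Leydig and 23.2% higher in Interstitial. Between Interstitial and Sertoli, 4 were higher in Interstitial (Rgs5, Des, Tagln and Acta2), 3 were lower (Cspg4, Mcam and Myh11) and 2 did not pass (Cnn1 and Myl9). Here the median was 1 against 0.043 for all genes, and 61.8% of all genes were called, 32.7% higher in Interstitial and 29.1% higher in Sertoli. The 3 comparisons share libraries. Scaling by library size alone raised the median of all genes to 0.097 in Leydig against Sertoli and to 0.211 in Interstitial against Sertoli. With it, calls higher in the first-named population rose from 45.1 to 58.8% of calls in Leydig against Sertoli and from 52.9 to 65.2% in Interstitial against Sertoli, and no member's call changed direction. In Leydig against Interstitial that share moved from 48.7 to 40.2%.

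**Figure D1:**
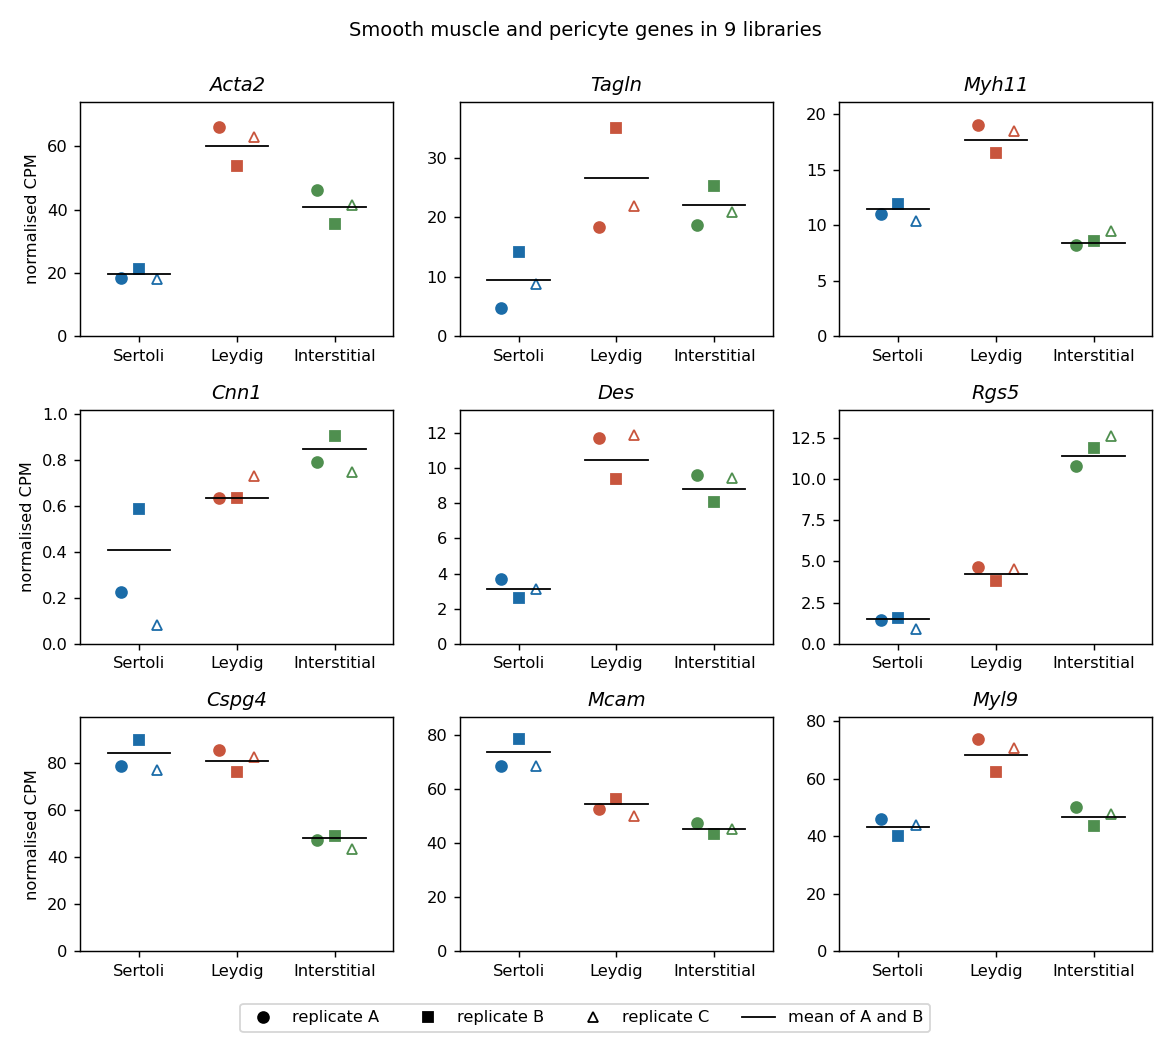
Normalised CPM of the 9 genes (y axis, from 0, a scale of its own for each gene) in the Sertoli, Leydig and Interstitial libraries (x axis), with filled circles for replicate A, filled squares for B, open triangles for C and a line at the mean of A and B. Acta2 is highest in Leydig at 53.7 to 66.2 CPM, Rgs5 in Interstitial at 10.8 to 12.6 CPM and Mcam in Sertoli at 68.7 to 78.6 CPM.

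**Figure D2:**
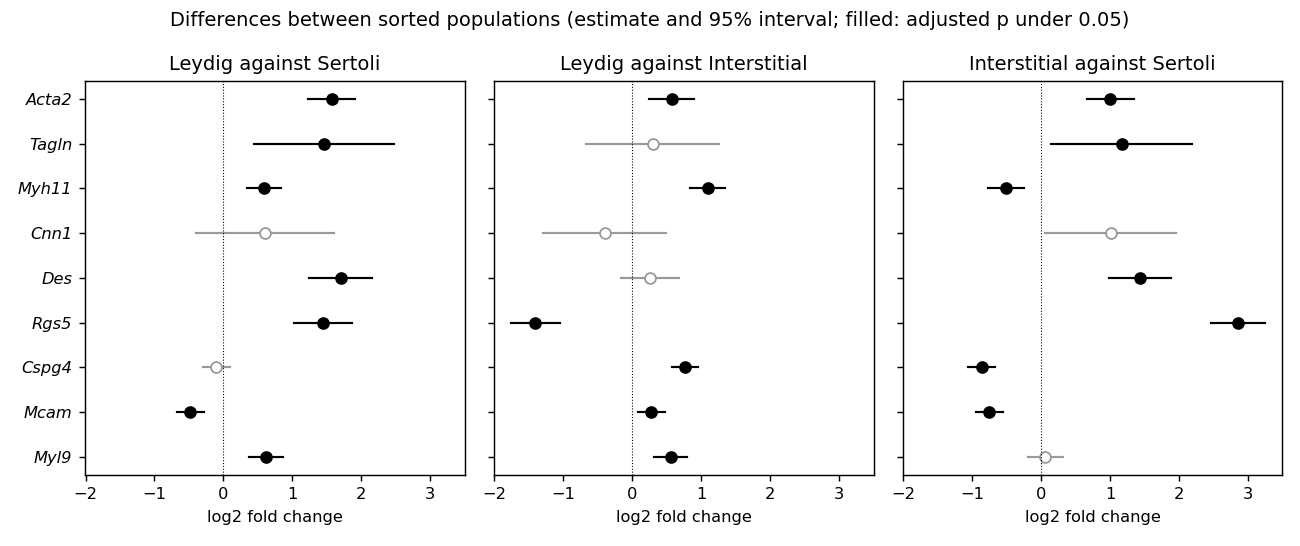
Log2 fold change of each gene (x axis) in the 3 comparisons, as edgeR's estimate with its 95% interval. Filled points have an adjusted p under 0.05. In Interstitial against Sertoli, Rgs5 stands at 2.86 and Cspg4 at -0.86.

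Acta2 encodes smooth muscle alpha-actin, the actin of the contractile apparatus (ENSMUSG00000035783, chromosome 19, 34241090 to 34255590, minus strand, as all gene positions here on GRCm38 in GENCODE M21). It stood at 66.2, 53.7 and 62.9 CPM in Leydig replicates A, B and C. The Interstitial libraries held 46.2, 35.5 and 41.6 CPM and the Sertoli libraries 18.2, 21.2 and 18.1 CPM. The 3 populations did not overlap, with Leydig highest and Sertoli lowest. Leydig (60 ± 8.86 CPM, SD over A and B, n = 2) was 2.96-fold above Sertoli (19.7 ± 2.16 CPM), a log2 difference of 1.57 ± 0.15 (SE; edgeR adjusted p 6.27e-05). Interstitial (40.9 ± 7.54 CPM) was 2-fold above Sertoli (1 ± 0.15, edgeR adjusted p 0.000421). The step from Interstitial to Leydig was smaller, at 0.57 ± 0.14 (edgeR adjusted p 0.0118), and it was lost without Interstitial replicate B, the lowest Interstitial library for this gene (0.37, edgeR adjusted p 0.0885).

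Tagln encodes transgelin, an actin-binding protein of smooth muscle also known as SM22-alpha (ENSMUSG00000032085, chromosome 9, 45929619 to 45936058, minus strand). Its levels were 18.3, 35 and 21.9 CPM in Leydig A, B and C, and 18.7, 25.3 and 20.8 CPM in Interstitial. Sertoli held 4.71, 14.1 and 8.78 CPM. Each Sertoli library was below each library of the other populations, while Leydig and Interstitial overlapped, and B was the highest library in all 3 populations. Leydig was above Sertoli by 1.46 ± 0.45 (edgeR adjusted p 0.0315) and Interstitial by 1.17 ± 0.45 (edgeR adjusted p 0.0486). Leydig and Interstitial differed by 0.3 ± 0.42 (95% interval -0.67 to 1.26, edgeR adjusted p 0.605). Both calls against Sertoli depended on the libraries kept, and each such refit leaves 1 library in a population. The first was lost without Sertoli A (0.87) or Leydig B (0.96), and it rose to 2.45 without Sertoli B. The second was lost with a smaller difference without Sertoli A (0.57) or Interstitial B (0.99). Without Interstitial A it was lost although the difference rose to 1.42, and it was 2.15 without Sertoli B. DESeq2 called neither, with adjusted p of 0.107 and 0.167.

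Tagln also shares sequence with genes on the other strand. Of 1983 windows of 75 bases in its transcripts, 53.3% stand in reverse complement in transcripts of Gm48529 or Pcsk7. Its exons share 1241 bases with Gm48529 and 108 with Pcsk7, which had at most 966 reads in a library. The kit kept strand, but the sources used here do not state the strand setting of the counting. Reads of these genes could not be told apart if strand was ignored. The other members shared no such window with another gene, except Des, at 3.94% with the antisense gene Gm15179, which had at most 2 reads in a library. No member shared a window with another gene on its own strand.

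Cnn1 encodes calponin 1, an actin-binding inhibitor of myosin activity found in differentiated smooth muscle (ENSMUSG00000001349, chromosome 9, 22099216 to 22109630, plus strand). It was close to the floor. Read counts were 21, 22 and 27 in Leydig A, B and C, and 32, 31 and 30 in Interstitial. Sertoli held 8, 20 and 3 reads, the last equal to what a count of 0 allows. In CPM these are 0.632 to 0.73 in Leydig, 0.746 to 0.902 in Interstitial and 0.0808 to 0.587 in Sertoli, so the populations did not overlap although no difference passed the test. Interstitial against Sertoli came nearest, at 1.01 ± 0.42 (95% interval 0.05 to 1.96, edgeR adjusted p 0.0642). Leydig against Sertoli was 0.61 ± 0.44 (-0.4 to 1.61, edgeR adjusted p 0.326) and Leydig against Interstitial -0.4 ± 0.39 (-1.29 to 0.49, edgeR adjusted p 0.44). Without Sertoli B, Interstitial against Sertoli passed, at 1.83 (edgeR adjusted p 0.015).

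Myh11 encodes the smooth muscle myosin heavy chain, the motor of the contractile filament (ENSMUSG00000018830, chromosome 16, 14194535 to 14291372, minus strand). Leydig A, B and C held 19, 16.5 and 18.5 CPM. Sertoli held 11, 11.9 and 10.4 CPM and Interstitial 8.19, 8.55 and 9.43 CPM. The populations did not overlap, and Myh11 was the 1 member with Sertoli between the other populations at a called difference on both sides. Leydig was 2.14-fold above Interstitial (1.1 ± 0.11, edgeR adjusted p 0.000139) and 1.51-fold above Sertoli (0.59 ± 0.11, edgeR adjusted p 0.00296). Interstitial was below Sertoli, at -0.51 ± 0.11 (edgeR adjusted p 0.00426), a call lost without Interstitial A (-0.42, edgeR adjusted p 0.0528).

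Myl9 encodes the regulatory light chain that smooth muscle myosin carries, the subunit whose phosphorylation starts contraction (ENSMUSG00000067818, chromosome 2, 156775420 to 156781658, plus strand). It was at 73.7, 62.5 and 70.8 CPM in Leydig A, B and C. Interstitial held 50.1, 43.4 and 47.9 CPM and Sertoli 46, 40.2 and 43.8 CPM. Leydig stood clear of both, and the other populations overlapped. Leydig was above Sertoli by 0.62 ± 0.11 (edgeR adjusted p 0.00222) and above Interstitial by 0.56 ± 0.11 (edgeR adjusted p 0.00351). Interstitial and Sertoli differed by 0.06 ± 0.11 (95% interval -0.19 to 0.31, edgeR adjusted p 0.651).

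Des encodes desmin, the intermediate filament protein of muscle, also carried by pericytes (ENSMUSG00000026208, chromosome 1, 75360329 to 75368579, plus strand). Leydig A, B and C held 11.7, 9.37 and 11.9 CPM. Interstitial held 9.62, 8.06 and 9.43 CPM and Sertoli 3.68, 2.61 and 3.1 CPM. Sertoli was lowest without overlap. Leydig was 3.24-fold above it (1.7 ± 0.2, edgeR adjusted p 0.000214) and Interstitial 2.7-fold (1.43 ± 0.2, edgeR adjusted p 0.000289). Leydig and Interstitial overlapped and differed by 0.26 ± 0.18 (95% interval -0.16 to 0.68, edgeR adjusted p 0.276).

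Of the 3 pericyte genes, Rgs5 was highest in Interstitial, while Cspg4 and Mcam were lowest there. Rgs5 encodes a regulator that shortens G-protein signalling and is widely used to mark pericytes (ENSMUSG00000026678, chromosome 1, 169655501 to 169695813, plus strand). Its levels were 10.8, 11.9 and 12.6 CPM in Interstitial A, B and C. Leydig held 4.66, 3.83 and 4.54 CPM and Sertoli 1.43, 1.58 and 0.889 CPM. No population overlapped another. Interstitial was 7.24-fold above Sertoli (2.86 ± 0.17, edgeR adjusted p 1.88e-06), and this log2 difference ran from 2.78 to 3.18 over 15 alternative settings. Interstitial was 2.65-fold above Leydig, where Leydig minus Interstitial was -1.41 ± 0.16 (edgeR adjusted p 0.000207), and Leydig was 2.73-fold above Sertoli (1.45 ± 0.18, edgeR adjusted p 0.000313).

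Cspg4 encodes the NG2 proteoglycan, a surface protein of pericytes and of glial progenitors (ENSMUSG00000032911, chromosome 9, 56865033 to 56899870, plus strand). It was at 78.7, 89.9 and 77.3 CPM in Sertoli A, B and C. Leydig held 85.7, 76.1 and 82.6 CPM, which overlaps Sertoli, and Interstitial 47.3, 49 and 43.6 CPM, which overlaps neither. Interstitial was below Sertoli (-0.86 ± 0.09, edgeR adjusted p 3.93e-05), and Leydig was 1.7-fold above Interstitial (0.76 ± 0.09, edgeR adjusted p 0.000235). Leydig against Sertoli was -0.1 ± 0.09 (95% interval -0.3 to 0.09, edgeR adjusted p 0.402).

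Mcam encodes CD146, an adhesion molecule of endothelial cells, pericytes and smooth muscle (ENSMUSG00000032135, chromosome 9, 44134469 to 44142727, plus strand). Sertoli A, B and C held 68.7, 78.6 and 68.7 CPM. Leydig held 52.8, 56.3 and 50.1 CPM and Interstitial 47.6, 43.4 and 45.5 CPM. The populations did not overlap, with Sertoli highest. Interstitial minus Sertoli was -0.75 ± 0.09 (edgeR adjusted p 8.63e-05) and Leydig minus Sertoli -0.48 ± 0.09 (edgeR adjusted p 0.00238). The difference between Leydig and Interstitial was small, 0.27 ± 0.09 (edgeR adjusted p 0.0297). It did not pass with library size alone (0.21, edgeR adjusted p 0.105), without Leydig B (0.22, edgeR adjusted p 0.128) or without Interstitial B (0.19, edgeR adjusted p 0.211).

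Levels can be compared between genes only per exon length. In CPM per kb of exon, averaged over Leydig A and B, Myl9 was the highest of the 9 at 58.6, followed by Acta2 at 27.3, Mcam at 16.3 and Tagln at 13.4. Cspg4 was at 6.78, Des at 2.8, Myh11 at 2.33, Rgs5 at 0.934 and Cnn1 at 0.231. In Sertoli the order began with Myl9 at 37.1 and Mcam at 22, and Acta2 was at 8.96. The contractile genes thus spanned a wide range, with Myl9 and Acta2 above Myh11 and Cnn1 in each population. In Interstitial, Myl9 and Acta2 were at 40.2 and 18.6, Myh11 and Cnn1 at 1.1 and 0.31.

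Most of these proteins have close relatives in other cells, so each gene was also set against its family, per exon length (families chosen after the members' values were seen). Among 6 actins, Acta2 made up 0.73 to 0.824% of the summed level over the 3 Sertoli libraries, 1.65 to 1.92% in Leydig and 1.24 to 1.61% in Interstitial. The cytoplasmic actin gene Actb made up 69.6 to 72.2% over all libraries. Acta2 was thus a small part of the actin message in each population. Among 3 calponins, Cnn1 was 0.0343 to 0.239% in Sertoli, 0.208 to 0.238% in Leydig and 0.307 to 0.38% in Interstitial. Cnn2, the calponin of non-muscle and smooth muscle cells, made up 10.5 to 14.3% in Sertoli, 34.7 to 36% in Leydig and 32.5 to 34.2% in Interstitial, and the remainder was nearly all Cnn3.

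Among 4 heavy chains of class II myosin, Myh11 made up 2.54 to 2.7% in Sertoli, 3.19 to 3.41% in Leydig and 1.57 to 1.92% in Interstitial. The non-muscle chains differed between populations: Myh9 had 51.9 to 54% in Sertoli and 36.3 to 38.4% in Leydig, and Myh10 had 38.1 to 40% and 56.9 to 58.9%. Myl9 was a large part of its family of 3 regulatory light chains, with 32.2 to 36.4% in Sertoli, 43.5 to 47.9% in Leydig and 35.2 to 39.4% in Interstitial. Tagln made up 17.1 to 37.2% of 3 transgelins in Sertoli, 33.7 to 52.2% in Leydig and 48.8 to 55.8% in Interstitial. Des was small beside vimentin, with 0.276 to 0.399% of a family of 3 in Sertoli, 1.6 to 1.88% in Leydig and 3.17 to 3.6% in Interstitial. The remaining member, Synm, had 2.17 to 2.44%, 1.85 to 1.92% and 1.28 to 1.49%, above Des in Sertoli and below it in Interstitial. The share of Des was thus highest in Interstitial, although its level was not called different between Leydig and Interstitial. Vimentin (Vim), which fell by 1.91 on the log2 scale from Sertoli to Interstitial (edgeR adjusted p 1.23e-07), made up 95 to 97.6% over all libraries.

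**Figure D3:**
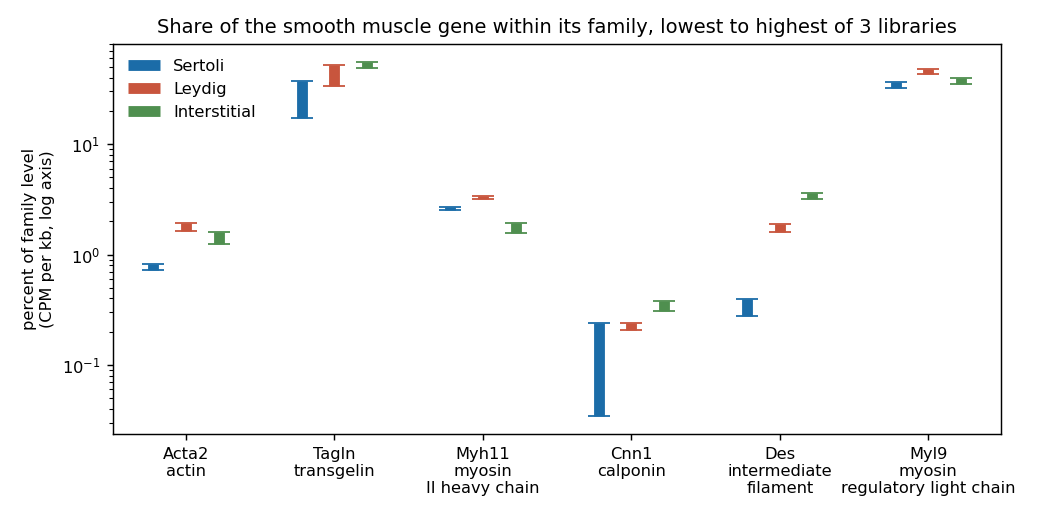
Share of each smooth muscle gene in the summed level of its gene family (y axis, percent of CPM per kb, log axis), as the range from the lowest to the highest of 3 libraries for each population. Acta2 stays at or under 1.92% of the actins, while Tagln reaches 55.8% of the transgelins.

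The regulators of contractile genes were measured beside the members. Myocd, the muscle-restricted coactivator, was at 8.42, 7.35 and 9.9 CPM in Leydig A, B and C, and at 7.92, 6.87 and 8.65 CPM in Interstitial. Sertoli held 0.505, 0.616 and 0.512 CPM. Leydig was thus 13.6-fold above Sertoli (3.77 ± 0.21, edgeR adjusted p 3.84e-06) and Interstitial 12.6-fold (3.66 ± 0.21, edgeR adjusted p 1.22e-06). The largest difference of a member was the 2.86 of Rgs5. Leydig and Interstitial differed by 0.11 ± 0.15 (95% interval -0.25 to 0.46, edgeR adjusted p 0.614). Between these 2 populations Acta2, Myh11 and Myl9 were called, all higher in Leydig, and Tagln, Des and Cnn1 were not, as given above. Myh11 was lower in Interstitial than in Sertoli, and Myl9 was not called there.

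Srf, the DNA-binding partner, was at 65.9 to 91.3 CPM in Sertoli, 98.2 to 117 in Leydig and 82.8 to 107 in Interstitial, with no call in the main test. Leydig against Sertoli was 0.42 ± 0.15 (edgeR adjusted p 0.0616) and passed in 10 of 15 alternatives, for example without Sertoli B (0.67, edgeR adjusted p 0.0144). Interstitial against Sertoli was 0.27 ± 0.15 (edgeR adjusted p 0.16) and passed in 5 of 15, among them without Sertoli B (0.51, edgeR adjusted p 0.0214). Mrtfa, a coactivator released by actin polymerisation, was not called in any comparison (edgeR adjusted p 0.338, 0.673 and 0.125), but it passed against Sertoli with all 9 libraries in Leydig (0.18, edgeR adjusted p 0.0289) and Interstitial (0.2, edgeR adjusted p 0.0141), and in Interstitial with library size alone (0.32, edgeR adjusted p 0.00667). Its relative Mrtfb was slightly higher in Interstitial than in Sertoli (0.29 ± 0.07, edgeR adjusted p 0.00613; lost without Sertoli A, 0.0537). Its difference of 0.2 ± 0.07 between Leydig and Sertoli lay at the threshold (edgeR adjusted p 0.0499). This call was lost with RLE size factors, another scaling (edgeR adjusted p 0.0546), with DESeq2 (DESeq2 adjusted p 0.0632) and with limma voom (limma voom adjusted p 0.0544). It was also lost without Sertoli A (0.16), Sertoli B (0.25) or Leydig B (0.18).

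A list of 36 other contractile genes, all of them tested, was higher in Leydig than in Sertoli for 21 genes, lower for 3 and not called for 12, with a median log2 difference of 0.5. That is 66.7% called, against 37.5% of all genes. The called genes at 5 CPM or more with the largest differences were Myocd, the integrin gene Itga1 (1.9), Cnn2 (1.8 ± 0.15) and the caldesmon gene Cald1 (1.66 ± 0.08). Caldesmon binds actin and tropomyosin, and its gene reached 423 to 490 CPM in Leydig against 141 to 142 in Sertoli. Against Interstitial, 14 were higher in Leydig, 2 lower and 20 not called (median 0.3), led at 5 CPM or more by the synemin gene Synm (1.68 ± 0.09), the myosin phosphatase inhibitor gene Ppp1r14a (1.36 ± 0.19), Vim (1.25 ± 0.07) and Tagln2 (0.87 ± 0.09). The 44.4% called there is near the 45.1% of all genes. In Interstitial against Sertoli, 16 were higher, 11 lower and 9 not called (median 0.17), or 75% called against 61.8% of all genes. At 5 CPM or more it was led by Myocd, Itga1 (2.7 ± 0.13), Synm (-2.61 ± 0.09) and Vim (-1.91 ± 0.07). Over 15 alternatives, the numbers of this list higher in the first-named population ran from 17 to 26, 10 to 18 and 12 to 20, and the numbers lower from 2 to 4, 1 to 2 and 5 to 11. In Interstitial against Sertoli the balance moved to 20 higher and 5 lower with library size alone, and to 13 and 5 without Interstitial B. The enteric smooth muscle actin gene Actg2 was at or under 0.568 CPM in every library, and the leiomodin gene Lmod1 at or under 1.33 CPM.

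Of 24 other genes used as pericyte markers, 22 were tested. In Leydig against Sertoli 13 were higher, 2 lower and 7 not called, with a median of 1.11, which is 68.2% called against 37.5% of all genes. At 5 CPM or more, the largest called differences were those of Gucy1a1, a subunit of the nitric oxide receptor (2.29 ± 0.07), the endothelin receptor gene Ednra (1.87 ± 0.08), the potassium channel subunit gene Abcc9 (1.73 ± 0.2) and Cd248 (1.7 ± 0.15), a surface marker of stromal and perivascular cells. In Interstitial against Sertoli 14 were higher, 3 lower and 5 not called (median 1.07), or 77.3% called against 61.8% of all genes, led at 5 CPM or more by Gucy1a1 (2.04 ± 0.07), Cd248 (1.9 ± 0.14), Abcc9 (1.88 ± 0.19) and the forkhead gene Foxs1 (-1.68 ± 0.16). Between Leydig and Interstitial 5 were higher, 5 lower and 12 not called (median 0.07), and the 45.5% called is near the 45.1% of all genes. At 5 CPM or more, the largest called differences were higher in Leydig: Foxs1 (1.88 ± 0.16), the Notch target gene Heyl (1.34 ± 0.12), Ednra (0.66 ± 0.08) and Gucy1b1 (0.6 ± 0.13). The 5 CPM is a mean over the 6 libraries A and B. Below it stood called genes with larger differences, named after their values were seen, and Kcnj8 (described next) is another. Foxd1 was lower in Leydig than in Interstitial (-2.99 ± 0.32, edgeR adjusted p 0.000177) and higher in Interstitial than in Sertoli (2.76 ± 0.31). Angpt1 was higher than in Sertoli in both Leydig (2.61 ± 0.2) and Interstitial (3.16 ± 0.2), and Rgs4 in Interstitial (4.17 ± 0.92). The pools split widely for Rgs4, at 0.816, 4.74 and 2.16 CPM in Interstitial A, B and C. Sertoli held 0.112, 0.176 and 0.242 CPM of it. Over 15 alternatives, 10 to 16, 4 to 7 and 12 to 17 of the pericyte list were higher in the first-named population and 2, 3 to 7 and 3 to 4 lower. Higd1b was at or under 0.0582 CPM and Vtn at or under 0.162 CPM in every library, both in use as pericyte markers in other tissues.

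Pdgfrb, the receptor through which vessels recruit pericytes, was at 151, 111 and 142 CPM in Leydig A, B and C. It was at 139, 106 and 117 CPM in Interstitial and at 61.5, 51.8 and 56 CPM in Sertoli. Both interstitial populations were above Sertoli, by 1.17 ± 0.17 in Leydig (edgeR adjusted p 0.000639) and 1.06 ± 0.17 in Interstitial (edgeR adjusted p 0.000574). Leydig and Interstitial overlapped and differed by 0.11 ± 0.16 (edgeR adjusted p 0.612). Kcnj8, which encodes the potassium channel pore that pairs with Abcc9, was named after its values were seen because it stood in the same order as Rgs5. It was at 6.09, 4.04 and 5.5 CPM in Interstitial, 1.35, 1.64 and 1.57 in Leydig and 0.225, 0.117 and 0.135 in Sertoli. Leydig minus Interstitial was -1.74 ± 0.27 (edgeR adjusted p 0.00112) and Interstitial minus Sertoli 4.8 ± 0.37 (edgeR adjusted p 8.48e-06).

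**Figure D4:**
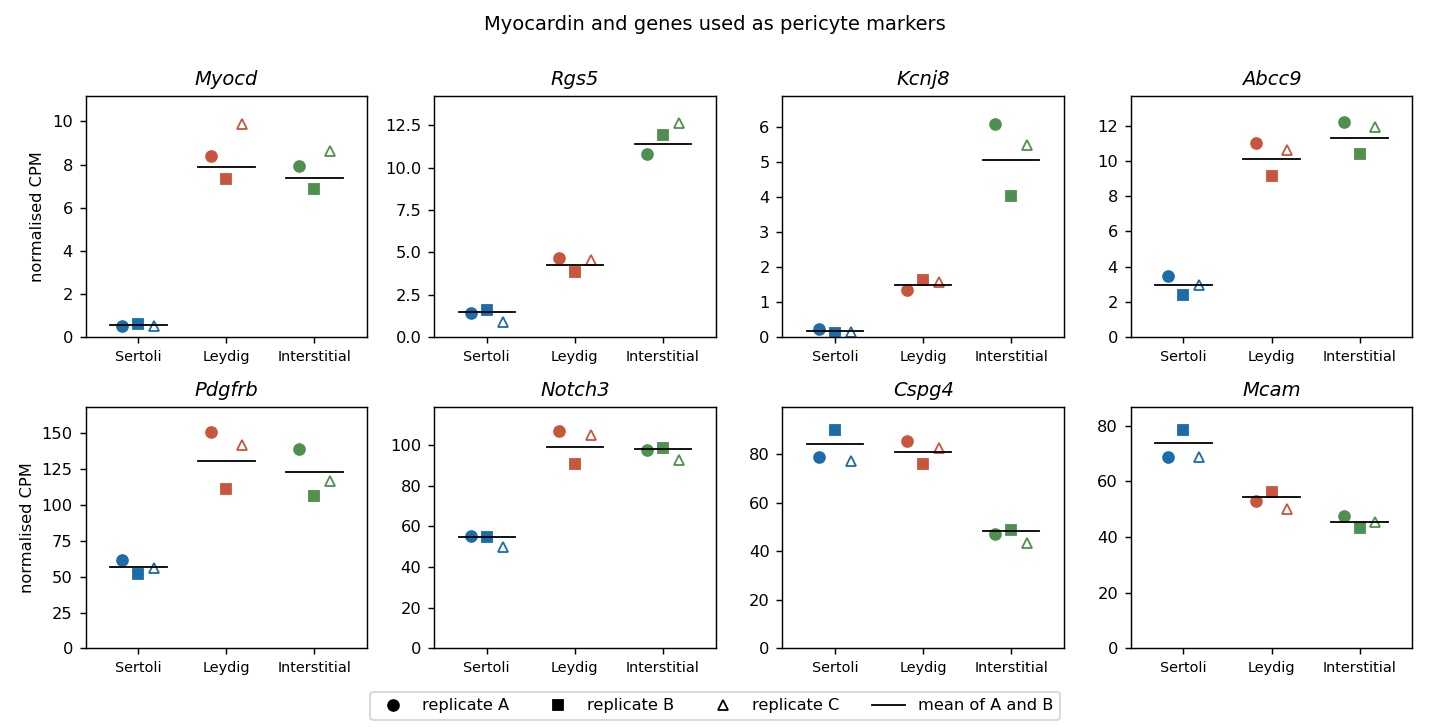
Normalised CPM (y axis, from 0, a scale of its own for each gene) of Myocd and 7 genes used as pericyte markers in the 9 libraries (x axis, by population), with filled circles for replicate A, filled squares for B, open triangles for C and a line at the mean of A and B. Rgs5 and Kcnj8 are highest in Interstitial, Cspg4 and Mcam are lowest there, and Myocd is at or under 0.616 CPM in Sertoli.

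Markers of other cells also differed between the populations, and not all lists in the order of a member. The sum of 16 endothelial markers was 66.7 to 70.6 CPM in Sertoli, 327 to 369 in Leydig and 318 to 379 in Interstitial, and 15 of 16 were higher in Leydig and 15 of 16 in Interstitial than in Sertoli. None of the 16 was at 0 in any library. Pecam1, which encodes the CD31 used in the sort, was at 8.83 to 12.9 CPM in Sertoli, 24.2 to 35.9 in Leydig and 68.2 to 73 in Interstitial, the same order as Rgs5. The endothelial list as a whole was not in that order, with 8 of 16 higher in Leydig than in Interstitial and 2 lower (median 0.49). Lists whose sums did stand in the order of Rgs5 were the 7 mesothelial genes measured, at 18 to 19.2 CPM in Sertoli, 146 to 158 in Leydig and 249 to 297 in Interstitial, and 10 macrophage genes, at 4.83 to 6.46, 18.2 to 30.2 and 55.9 to 84.6 CPM. All 7 and all 10 were higher in Interstitial than in Sertoli, as were 8 of 8 germ cell genes, 10 of 10 erythroid genes and 9 of 10 genes of mesonephric epithelium. The sum of 12 genes of interstitial stroma was 704 to 755 CPM in Sertoli, 2090 to 2330 in Leydig and 1800 to 1900 in Interstitial, the same order as the means of Acta2 and Des. The part of these cells in the members' differences was not tested. Of 22 genes of skeletal and heart muscle, the sum was 79 to 87.4 CPM in Sertoli, 77.5 to 92.7 in Leydig and 53.6 to 57.4 in Interstitial, and the defining genes were at or near the floor: Myod1 reached at most 0.262 CPM, Myog 0.198 and Pax7 0.124. Of 10 genes of Schwann cells and neural crest, the sum was 222 to 225 CPM in Sertoli, 74.7 to 78.2 in Leydig and 67.3 to 89.7 in Interstitial, highest where Mcam was highest, and this was not tested either.

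The pools A and B of a population also differed for single members. For Tagln the log2 ratio of B to A was 1.58 in Sertoli, 0.94 in Leydig and 0.44 in Interstitial. Over 4 lanes, plain CPM ran from 3.89 to 6.19 in Sertoli A and from 12.1 to 15.4 in Sertoli B. Leydig A ran from 16.9 to 19.4 and Leydig B from 32.7 to 39.7, and Interstitial A from 19.3 to 20.2 and Interstitial B from 22.8 to 27.8. The lanes of A and B thus did not overlap in any population. Lanes show technical spread within a library and not the spread between pools. Contractile members differed in this. Cnn1, at few reads, had ratios of 1.39, 0.01 and 0.19, Des had -0.49, -0.32 and -0.26, Myl9 had -0.2, -0.24 and -0.21, and Acta2 had 0.22, -0.3 and -0.38. Of the 36 other contractile genes, 6 were higher in B in each population and 4 lower. The 6 include Srf, with ratios of 0.47, 0.23 and 0.27, and the low genes Lmod1 (1.65, 0.71 and 0.23) and Actg2 (0.84, 0.24 and 0.51), chosen after their values were seen.

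**Figure D5:**
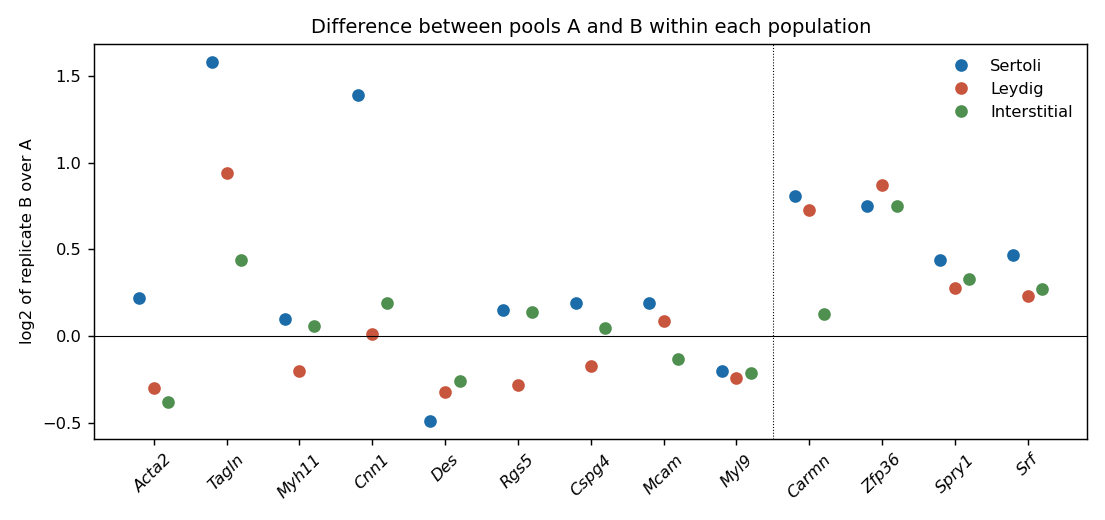
Log2 ratio of replicate B to replicate A (y axis) for the 9 genes, left of the dotted line, and for Srf and the 3 genes most like Tagln, right of it (x axis), with a point for each population. Tagln is above 0 in all populations, from 0.44 to 1.58, while Des and Myl9 are below 0.

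The genes most like each member were found by the root mean square difference of log2 CPM, centred on each gene's mean, over the 6 libraries A and B, among genes with a mean of at least 5 CPM. For Tagln these were Carmn (0.252), Zfp36 (0.341) and Spry1 (0.418). The long noncoding RNA gene Carmn, known from heart and smooth muscle, was at 5, 8.74 and 6.25 CPM in Sertoli A, B and C, 15.4, 25.5 and 18.4 in Leydig and 15.5, 17 and 14.8 in Interstitial. It was thus also higher in B of each population, by log2 ratios of 0.81, 0.73 and 0.13. Zfp36, an immediate early gene whose product promotes RNA decay, had ratios of 0.75, 0.87 and 0.75. Acta2 was most like Gria4 (0.042), Ehd2 (0.08) and Fat3 (0.089), and Des most like Inka1 (0.07), Hgf (0.088) and Tril (0.097). Fat3, for example, was at 57.6 to 60.3 CPM in Sertoli, 169 to 196 in Leydig and 119 to 156 in Interstitial.

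Myh11 was most like Gm2694 (0.058), Bmp2 (0.075) and Mme (0.077), and Myl9 most like Pimreg (0.032), Sparcl1 (0.059) and Armh4 (0.063). Rgs5 had Inava (0.153), Rarg (0.201) and Pdzrn3 (0.202), and Cnn1 had Pde4b (0.149), Cenps (0.231) and Rap1gap2 (0.249). Cspg4 was most like Ptch1 (0.042), the Hedgehog receptor gene, with Snx33 (0.056) and Rasa3 (0.056), and Mcam most like Zcchc7 (0.051), Tmem245 (0.054) and Tmem135 (0.058). Ptch1 was at 196 to 232 CPM in Sertoli, 198 to 210 in Leydig and 109 to 118 in Interstitial. No member had another member among its 3 nearest. The closest pair were Cspg4 and Mcam at 0.227, with 1122 of 11459 genes nearer to Cspg4 than Mcam was. For Acta2 and Des at 0.28, 199 genes were nearer to Acta2 than Des and 168 nearer to Des than Acta2.

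The authors' deposited table of Leydig against Sertoli, which lists genes with an adjusted p under 0.05 and at least a 2-fold difference, holds Acta2 at a log2 fold change of 1.68, Des at 1.82, Rgs5 at 1.78 and Tagln at 1.54. The authors' deposited table of Leydig against Interstitial holds Myh11 at 1.02 and Rgs5 at -1.45. The authors' deposited table of Interstitial against Sertoli holds Rgs5 at 3.23, Des at 1.56, Tagln at 1.38 and Acta2 at 1.13. For each of these genes the sign was that of the fit to replicates A and B.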

How the data were processed

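The authors deposited a table of raw read counts, with a column for each lane of each library. The submitters' processing notes name TopHat2 2.0.6 (a read aligner), HTSeq (a read counter), limma and the genome build mm10. The deposited tables of comparisons list log2 fold changes, p-values and scores, per the file headers, of genes past a threshold. The sources used here do not give their model. The log odds scores and moderated statistics deposited by the authors were not used.

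Counts were summed over 4 lanes, leaving out 5 HTSeq summary lines. The line for reads assigned to no feature held 32.23 to 38.52% of all counts. Of 38560 genes, 36722 had a GENCODE M21 symbol. Replicates A and B of 3 populations (6 libraries) were fitted together with edgeR 4.0.16 in R 4.3.3 (TMM, filterByExpr, glmQLFit, glmQLFTest, Benjamini-Hochberg adjustment within each comparison). This left 3 residual and 5.53 prior degrees of freedom and a common biological coefficient of variation of 0.0871. The fit was also run on simulated counts, with far fewer changed genes than were called here and the same spread for all genes. That run checks the code and does not measure the error rates in these data. The log2 CPM used to find the genes most alike had a prior count of 2. Named in each comparison were the 9 members, up to 4 called genes of each other list with the largest difference and a mean of at least 5 CPM, the regulators Srf, Myocd, Mrtfa and Mrtfb, the receptor Pdgfrb, and the 3 genes most like each member. The members and lists were chosen with earlier results of these data known. The 15 alternatives covered scaling, filter, tool (DESeq2 1.42.0, limma 3.58.1), libraries and pairing. For the other genes they were added after seeing the data.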

Additional observations from a re-analysis of the deposited data

How the results depend on the processing

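In 402 refits of the 27 differences of the 9 genes (9 genes in 3 comparisons), 381 kept the call, 14 lost it, 7 gained one and 0 reversed a called direction. The 20 differences without a change include each one of Des, Rgs5, Cspg4 and Myl9. The number of members called ran from 6 to 8 in Leydig against Sertoli, 4 to 6 in Leydig against Interstitial and 5 to 8 in Interstitial against Sertoli. Tagln in Interstitial against Sertoli was also lost with RLE size factors (1.15, edgeR adjusted p 0.0507), with DESeq2 (1.14, DESeq2 adjusted p 0.167) and with a minimum of 1 CPM in 2 libraries (1.15, edgeR adjusted p 0.05), a filter that left Cnn1 untested. With all 9 libraries Cnn1 passed in Leydig against Sertoli (1.18, edgeR adjusted p 0.0336) and in Interstitial against Sertoli (1.46, edgeR adjusted p 0.00555). The latter passed also with library size alone (1.17), limma voom (1.13) and no low-count filter (1.06). The cause of these changes was not tested. A few uncalled differences changed sign in a setting: Tagln in Leydig against Interstitial reached -0.26, Cspg4 in Leydig against Sertoli 0.03 and Myl9 in Interstitial against Sertoli -0.04. Refits were also made for the listed genes with the largest called differences at 5 CPM or more, the regulators, Pdgfrb, Kcnj8 and Notch3. These 945 refits of 63 differences gave 895 unchanged calls, 22 lost, 28 gained and 0 reversed. Single differences of Foxd1, Angpt1 and Rgs4 were not refitted, and neither were those of the genes most like each member. Allowing 1 mismatch raised the promoters with a CArG box from 1 to 3.

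The populations share replicate letters, but the labels do not say that a letter marks a shared day or litter. The differences between A and B correlated across 11460 genes at 0.104 for Sertoli and Leydig, 0.285 for Sertoli and Interstitial and 0.418 for Leydig and Interstitial. With the letter as a replicate block, 7, 6 and 8 members were called in the 3 comparisons, and Cnn1 in Interstitial against Sertoli passed (1.03, edgeR adjusted p 0.0404), the 1 change among the members. Srf, higher in B in each population, passed with the block in Leydig against Sertoli (0.43, edgeR adjusted p 0.000574) and in Interstitial against Sertoli (0.28, edgeR adjusted p 0.00418). Over all genes the block raised the calls from 6762 to 7839, from 8146 to 9364 and from 11155 to 12013. Depth limits Cnn1, with 3 to 32 reads per library. Having 2 pools per population limits the precision of all differences.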
